A study of Mus musculus with 31 samples.

Results

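The genes of the myelin sheath and of the cell that makes it were followed through 31 hypothalamus libraries, by 9 members: Mbp, Mog, Mag, Mobp, Cnp, Mal, Opalin, Myrf and Ugt8a. They were chosen by name, and all 9 were found among the 54532 genes of the count table and passed the filter on low counts that left 18743 genes. The libraries came from C57BL/6J mice aged 4 months and fall into 4 groups by maternal diet and offspring sex. There were 7 libraries of females of obesogenic-diet dams, 8 of females of control-diet dams, 8 of males of obesogenic-diet dams and 8 of males of control-diet dams. Dams ate a high-fat, high-sugar (obesogenic) or a control diet while pregnant and nursing, and the pups went onto chow when weaned at day 21. At 3 months every offspring, those of control dams included, was given the obesogenic diet for 4 weeks, so within a sex the labels separate the groups by maternal diet alone. The first number in the title is lower in every obesogenic library than in every control library. Whatever follows that order cannot be told apart from maternal diet. The titles of 2 libraries, obesogenic female 1 and obesogenic male 1, join 2 numbers where each other title has 1, and each may stand for a single animal, a pool or merged runs, which the labels leave unsaid. The labels name no animal, litter or batch, so the p-values measure the spread between libraries, which may in part be technical or shared by littermates.

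Myelin is the many-layered membrane that oligodendrocytes wrap around axons in the central nervous system, where it speeds conduction and supports the axon. In the hypothalamus it lies mainly in fibre tracts that run through and around the nuclei. Mature oligodendrocytes make very large amounts of a few structural messages, and a membrane-anchored transcription factor, Myrf, switches on many of them when precursors mature. In whole tissue, fewer oligodendrocytes and less RNA per oligodendrocyte cannot be told apart.

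The genes fall into 4 roles. Mbp and Mobp encode small basic proteins of compact myelin, of which the Mbp product holds the cytoplasmic faces of the membrane together. Mog, Mag and Cnp encode proteins outside the compacted layers: Mog is on the outermost surface, Mag faces the axon, and Cnp keeps cytoplasmic channels open. Mal encodes a membrane proteolipid that takes part in sorting of myelin proteins, Opalin encodes a glycoprotein of mature oligodendrocytes, and Ugt8a encodes the enzyme that makes galactosylceramide, the main glycolipid of myelin. Myrf is the regulator of the set.

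Mog, Mag and Cnp varied together from library to library, and the 250 bases before the start of each hold 1 copy of CTGGCAC or CTGGTAC, the sequence reported to bind Myrf in rodent oligodendrocytes. These windows are shown for that reason, from RefSeq on GRCm38.p6, each written 5′ to 3′ on the strand of its gene. Capitals mark this sequence and the core ACAAAG bound by Sox-family factors, both searched on both strands. A match to CTGGTAC on the opposite strand reads GTACCAG, and a match to ACAAAG reads CTTTGT there. Mog is on chr17:37023399-37023648, minus strand, Mag on chr7:30914864-30915113, minus strand, and Cnp on chr11:100574689-100574938, plus strand.
Mog: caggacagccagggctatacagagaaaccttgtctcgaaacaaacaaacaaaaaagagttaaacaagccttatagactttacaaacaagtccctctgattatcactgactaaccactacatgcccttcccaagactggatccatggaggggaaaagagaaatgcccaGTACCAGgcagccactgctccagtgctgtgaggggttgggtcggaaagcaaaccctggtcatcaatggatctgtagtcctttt
Mag: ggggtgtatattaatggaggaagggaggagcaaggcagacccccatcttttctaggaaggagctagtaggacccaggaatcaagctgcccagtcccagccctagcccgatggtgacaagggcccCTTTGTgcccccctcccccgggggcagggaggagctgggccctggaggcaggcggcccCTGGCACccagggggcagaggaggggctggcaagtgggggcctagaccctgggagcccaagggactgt
Cnp: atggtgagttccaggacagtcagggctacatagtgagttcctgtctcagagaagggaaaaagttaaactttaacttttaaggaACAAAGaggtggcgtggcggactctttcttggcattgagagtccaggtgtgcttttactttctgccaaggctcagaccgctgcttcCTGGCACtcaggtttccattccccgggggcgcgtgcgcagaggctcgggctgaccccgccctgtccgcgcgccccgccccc
The match begins 83 bases before the RefSeq start in Mog, 68 in Mag and 81 in Cnp. For Mag, Cnp and Mobp the window reaches into the gene as the count table places it. Counted from that placement, the matches of Mag and Cnp lie nearer the gene. The window of Mobp, whose correlation was highest with Mbp, holds none of the first sequence and 6 copies of the Sox core (chr9:120149492-120149741, plus strand).
Mobp: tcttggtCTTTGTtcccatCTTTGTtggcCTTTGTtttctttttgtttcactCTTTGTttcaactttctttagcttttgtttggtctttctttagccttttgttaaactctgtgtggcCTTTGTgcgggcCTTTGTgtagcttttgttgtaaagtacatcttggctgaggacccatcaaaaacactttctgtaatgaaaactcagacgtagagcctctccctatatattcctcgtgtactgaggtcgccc
Windows of 7 of the 9 genes were searched, and among these 3 held CTGGCAC or CTGGTAC and 4 held ACAAAG. No window of Mbp or Myrf was searched, so the sequences before Mbp cannot be set beside those before Mobp. Over 27025 promoter windows of the same length, 5.86% held either of the first sequences and 16.5% held ACAAAG. In the 4 windows shown no match of one overlaps a match of the other. A match is a run of letters and not a shown binding site, and whether it bears on the covariation was not tested. Over the 31 libraries Pearson's r with Myrf was 0.43 for Mog, 0.66 for Mag and 0.51 for Cnp. It was 0.70 for Mal, 0.60 for Ugt8a, 0.57 for Mobp and 0.30 for Opalin, whose windows hold none of the first sequence.

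Library totals ran from 24627042 to 34232678 read pairs in obesogenic females, 28019596 to 36923748 in control females, 26128150 to 36283599 in obesogenic males and 23118626 to 38547288 in control males. The gene of lowest read number among the 9, Opalin, still had 316 to 1418 pairs per library, so counting error is small beside the spread between libraries. There were 5 doubtful libraries. In 2 of them the sex-linked genes went against the label: control female 7 had 0.312 CPM of Xist and 138.8 CPM summed over 4 Y-linked genes, and control male 7 had 575 CPM of Xist and none of the Y-linked genes. Control female 5 had 6.38 CPM summed over 18 hypothalamic identity genes, against a group median of 1556 CPM, with 2934 CPM of 10 olfactory bulb genes against a group median of 377. Fewer genes were detected in control male 6, 18734, and in obesogenic female 3, 18513, than in any other library, where at least 21311 were. Each result below is also given without these 5 where that matters, with 6, 6, 8 and 6 libraries left in the 4 groups.

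All 9 genes were read in every library, while a defining marker of the other myelinating cell, the Schwann cell of peripheral nerve, was at 0. Of 10 Schwann cell genes, Pmp2, which encodes a peripheral myelin protein, had 0 reads in all 31 libraries. The summed level of the 10 genes was 115 to 145 CPM in obesogenic females, 115 to 165 CPM in control females, 109 to 147 CPM in obesogenic males and 106 to 150 CPM in control males. The highest of the list, named for their level, were Drp2 and Pmp22, at 57.7 and 32 CPM on average, which other cells express too.

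On GRCm38, as the count table gives the genes, Mog spans chr17:37010743-37023398, Mag chr7:30899176-30914873, Mal chr2:127633226-127656695 and Ugt8a chr3:125865271-125938619, all on the minus strand. Opalin and Myrf share chromosome 19, at chr19:41062474-41077113 and chr19:10208272-10240748, both on the minus strand. Mbp spans chr18:82475146-82585637, Mobp chr9:120149707-120181484 and Cnp chr11:100574904-100591729, on the plus strand. Counts are over whole genes, all exons together. Only Mobp shares exon bases with another gene on its strand, 79 bases (1.15%) with Gm38642.

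Levels of different genes were compared in TPM, which share each library's reads among genes after division by gene length. Mbp was the highest of the 9 at 960 ± 217 TPM (SD, n = 31). Cnp followed at 402 ± 57.1 TPM, then Mobp at 391 ± 93.5 TPM and Mal at 333 ± 46.7 TPM. Mog averaged 159 ± 31.1 TPM and Mag 149 ± 23.4 TPM. Opalin averaged 43.1 ± 13.9 TPM, Ugt8a 40.7 ± 9.26 TPM and Myrf 21.3 ± 4.3 TPM (SD, n = 31 each).

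In every one of the 31 libraries Mbp stood above the other 8 genes, Cnp, Mobp and Mal above Mog and Mag, and Mog and Mag above Opalin, Ugt8a and Myrf. Ugt8a exceeded Myrf in all 31 libraries and Opalin exceeded it in 30, the exception being obesogenic male 4 with 25.2 TPM of Opalin and 27.4 TPM of Myrf. Between other neighbours the order was not fixed: Cnp exceeded Mobp in 21 of 31 libraries, Mobp exceeded Mal in 26, Mog exceeded Mag in 22 and Opalin exceeded Ugt8a in 15. The TPM of every gene divides by the combined exons of all its transcripts, from 1704 bases for Mog to 8562 for Myrf. The order between genes therefore depends on these lengths. For Mbp the length is 8403 bases, and its TPM would be higher over the shorter transcripts that encode myelin protein.

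The remaining levels are in CPM, a gene's share of the read pairs of a library, scaled by the trimmed mean of M-values method (TMM), which compare 1 gene between libraries and not genes with each other. Mbp ranged from 1801 to 3566 CPM with a median of 2548 in obesogenic females, against 1304 to 3272 CPM and a median of 2466 in control females. In males it ranged from 1717 to 3409 CPM with a median of 2667 in the obesogenic group and from 1807 to 3747 CPM with a median of 2533 in the control group. The 4 groups overlapped over most of their ranges, and the highest library of the 31 was control male 6.

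Mobp showed the same width. It ran from 572 to 1286 CPM with a median of 833 in obesogenic females and from 438 to 1199 CPM with a median of 849 in control females. In males it ran from 559 to 1092 CPM (median 848) in the obesogenic group and from 569 to 1210 CPM (median 806) in the control group. The 4 groups again overlapped, the highest library was an obesogenic female, and the lowest value in control females was the library with olfactory bulb genes.

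The 3 genes of the uncompacted membrane were narrower once the 5 doubtful libraries were set aside: the highest library was then 1.87 times the lowest for Mog, 1.63 times for Mag and 1.40 times for Cnp, against 2.08 times for Mbp and 2.30 times for Mobp. With all 31 libraries it was 3.84, 3.01 and 3.50 times for Mog, Mag and Cnp, and 2.87 and 2.93 times for Mbp and Mobp. Mog ranged from 59.0 to 91.8 CPM (median 76.3) in obesogenic females and from 46.0 to 117 CPM (median 87.8) in control females. It ranged from 70.8 to 104 CPM (median 91.2) in obesogenic males and from 70.6 to 176 CPM (median 81.0) in control males, where 1 library, control male 6, stood well above the rest. Mag ranged from 138 to 205 CPM (median 184) in obesogenic females and from 95.4 to 236 CPM (median 191) in control females.

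Mag in males ranged from 168 to 232 CPM (median 208) in the obesogenic group and from 159 to 287 CPM (median 185) in the control group. Cnp ranged from 348 to 499 CPM (median 447) in obesogenic females and from 242 to 533 CPM (median 451) in control females. In males Cnp ranged from 387 to 521 CPM (median 473) in the obesogenic group and from 409 to 848 CPM (median 445) in the control group. For all 3 genes the control groups spread further than the obesogenic groups with all libraries, and their extremes were control female 5 at the low end in females and control male 6 at the high end in males. Without the 5 doubtful libraries the order turned round in males, with an SD of 12.3 CPM in obesogenic males against 9.53 CPM in control males for Mog, 24.5 against 20.6 CPM for Mag and 46.0 against 36.6 CPM for Cnp. In females the SD stayed lower in the obesogenic group, at 7.86 against 21.5 CPM for Mog, 16.8 against 36.4 CPM for Mag and 42.0 against 57.0 CPM for Cnp in control females.

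Among the other 4 genes, Opalin, the glycoprotein gene, varied most. It ranged from 15.9 to 29.96 CPM (median 20.4) in obesogenic females and from 8.54 to 40.9 CPM (median 22.2) in control females. It ranged from 14.1 to 41.8 CPM (median 27.8) in obesogenic males and from 17.9 to 39.9 CPM (median 23.3) in control males. The highest obesogenic female lay below the highest library of each other group, and all 4 groups overlapped.

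Mal ranged from 234 to 333 CPM (median 279) in obesogenic females and from 173 to 371 CPM (median 294) in control females. In males Mal ranged from 250.6 to 383 CPM (median 306) in the obesogenic group and from 243.8 to 332 CPM (median 291) in the control group. The groups overlapped in both sexes.

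Ugt8a, the galactosylceramide enzyme, ranged from 39.1 to 79.6 CPM (median 49.9) in obesogenic females and from 32.9 to 85.1 CPM (median 58.8) in control females. In males Ugt8a ranged from 51.7 to 80.2 CPM (median 59.0) in the obesogenic group and from 43.7 to 71.3 CPM (median 56.0) in the control group. Females of both diets spread wider than males.

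Myrf ranged from 43.3 to 72.9 CPM (median 55.7) in obesogenic females and from 27.3 to 63.4 CPM (median 55.4) in control females. In males Myrf ranged from 50.6 to 77.7 CPM (median 59.5) in the obesogenic group and from 50.3 to 71.6 CPM (median 54.2) in the control group. The medians of the 4 groups lay within a few CPM of each other.

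**Figure D1:**
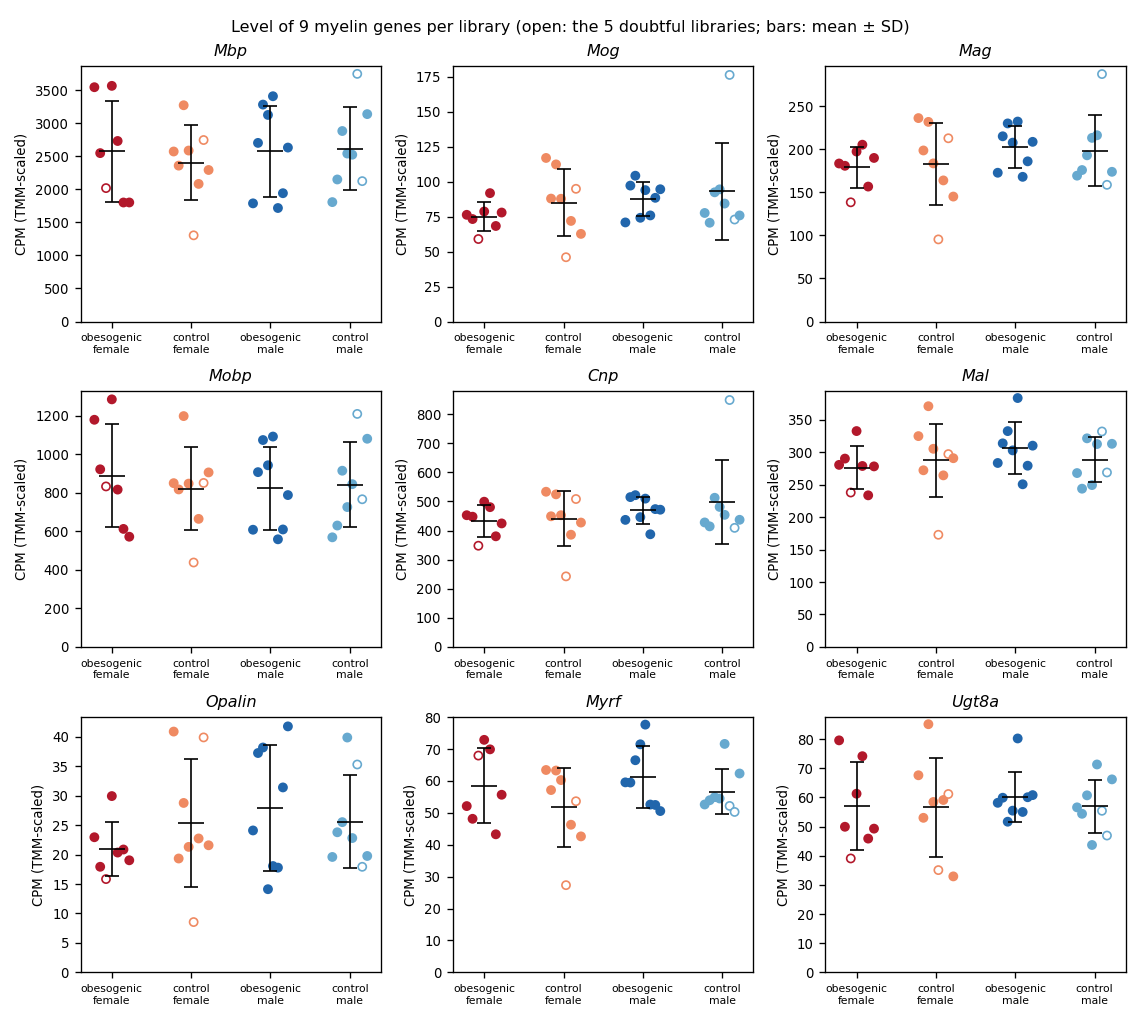
Level of each of the 9 genes in every library, in TMM-scaled CPM on a linear axis from 0, by group. Each point is 1 library, open points are the 5 doubtful libraries and bars show the mean ± SD; the groups overlap for all 9 genes, and the single high open points of Mog, Mag and Cnp are control male 6 at 176, 287 and 848 CPM.

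The first question was whether maternal diet moved these genes within a sex. Levels were compared with edgeR's quasi-likelihood test, with Benjamini-Hochberg adjustment over all genes tested and 0.05 as the threshold. In females 0 of 9 genes passed, with 0 of 18743 genes over the whole table (0%). At an unadjusted p under 0.05, 0 of 9 genes passed against 1522 of the 18743 (8.12%). The median log2 fold change of the 9 was -0.024, with 4 above 0 and 5 below, beside a median of -0.013 over all genes tested, of which 47.5% were above 0. DESeq2 and limma voom with sample weights also called 0 of 9 in each diet contrast, and at an unadjusted p under 0.05 in females DESeq2 had 0 of 9 and voom 1 of 9, which was Mog (log2 fold change -0.25, adjusted p 0.334).

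The largest estimates in females were those of Opalin, Mog and Myrf, each with an error of nearly its own size. Opalin differed by a log2 fold change of -0.27 ± 0.25 (SE), obesogenic over control, with an adjusted p of 0.765 by edgeR. Mog differed by -0.18 ± 0.17 (adjusted p 0.767) and Myrf by 0.18 ± 0.14 (adjusted p 0.719). Mobp and Mbp, with 0.11 ± 0.19 and 0.10 ± 0.19, and Mal, Mag, Cnp and Ugt8a, with -0.058 to 0.012, were nearer 0. The 95% intervals of the fold put bounds on what was measured: 0.82 to 1.39 for Mbp, 0.69 to 1.12 for Mog, 0.81 to 1.20 for Cnp and 0.58 to 1.19 for Opalin.

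With the 5 doubtful libraries left out, the estimate for Mog in females was -0.21 ± 0.12 and that for Myrf 0.038 ± 0.13. The 9 genes then had a median of -0.047, again with 4 above 0 and 5 below, beside 48.8% of all genes above 0.

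In males 0 of 9 genes passed the adjusted threshold, with 0 of 18743 in all (0%). At an unadjusted p under 0.05, 0 of 9 passed against 647 of the 18743 (3.45%). The 9 genes had a median log2 fold change of 0.029, with 5 above 0 and 4 below, beside a median of 0.00038 over all genes tested, of which 50.1% were above 0. The ends of the range were Mog at -0.090 ± 0.16 and Opalin at 0.12 ± 0.24 (SE; adjusted p 0.956 and 0.960 by edgeR). The 95% intervals of the fold were 0.76 to 1.27 for Mbp, 0.74 to 1.19 for Mog, 0.78 to 1.14 for Cnp and 0.77 to 1.54 for Opalin.

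When the 5 doubtful libraries were left out, all 9 genes had a log2 fold change above 0 in males, from 0.033 for Ugt8a to 0.14 for Opalin with a median of 0.072, where 52% of all genes tested were above 0. There 0 of the 9 and 0% of all genes passed the adjusted threshold, the smallest unadjusted p by edgeR being 0.238 for Mal. Mbp, Mog, Mobp and Cnp were below 0 with all libraries. One of the 2 control males left out in this step, control male 6, held 1.48 times the median of 6 other control males for Mbp, 2.18 times for Mog, 1.54 times for Mobp and 1.90 times for Cnp. The 9 genes covary, so they are not independent observations of a direction.

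**Figure D2:**
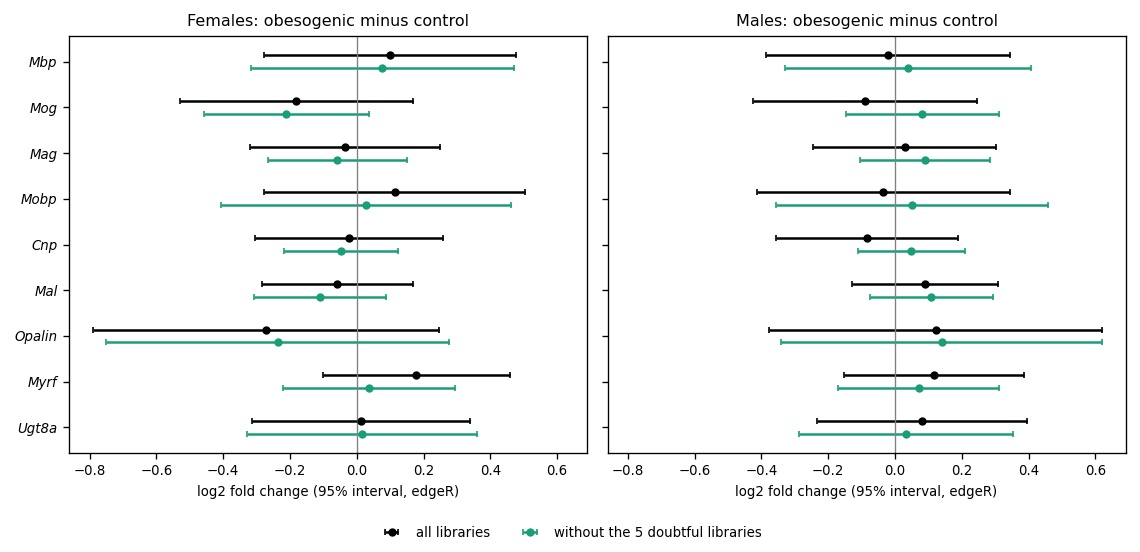
Log2 fold change of each gene, obesogenic over control maternal diet, in females (left) and males (right), with its 95% interval from edgeR. Black is all 31 libraries and green the 26 left without the 5 doubtful ones; every interval includes 0, and Opalin has the widest in both sexes.

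The second question was whether the response to maternal diet differed between the sexes. The interaction, the change in females minus the change in males, passed for 0 of 9 genes by edgeR, with 0 of 18743 in all (0%). At an unadjusted p under 0.05 there were 0 of the 9 and 679 of the 18743 (3.62%). Its median over the 9 genes was -0.066, and the ends were Opalin at -0.39 ± 0.35 and Mobp at 0.15 ± 0.27 (SE; adjusted p 0.9996 for both). The interval for Opalin, from -1.11 to 0.32 on the log2 scale, includes differences of more than 2-fold, and the farther ends of the intervals of Cnp and Mag lay 0.45 and 0.46 from 0.

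No difference between females and males, over both maternal diets, passed the test in these genes. By edgeR 0 of 9 passed, against 5 of 18743 genes (0.0267%), and 0 of 9 had an unadjusted p under 0.05, against 774 (4.13%). Of the 9 estimates 8 were below 0, that is lower in females, from -0.043 ± 0.11 for Ugt8a to -0.21 ± 0.18 for Opalin, and Mobp was at 0.037 ± 0.13 (SE), where 49.9% of all genes tested were below 0. Their median was -0.097 with all libraries and -0.024 without the 5 doubtful ones, where 6 of 9 were below 0 beside 51.7% of all genes. Among the 5 are the 2 libraries whose sex-linked genes go against their labels.

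The means of the groups lay closer together than single libraries within a group did. A mean over several libraries varies less than a single library, so this comparison is no test of a difference between groups. Without the 5 doubtful libraries the 4 group means of a gene lay within 0.057 (Mbp) to 0.27 (Opalin) log2 units of each other, less than the gene's standard deviation within groups for all 9. That standard deviation was 0.44 for Opalin, 0.38 for Mobp, 0.35 for Mbp and 0.31 for Ugt8a. It was 0.24 for Myrf, 0.23 for Mog, 0.19 for Mag, 0.18 for Mal and 0.15 for Cnp. Beside genes within 1 log2 unit of the same level, Opalin varied more than 98.4% of 5288, Mobp more than 97.7%, Ugt8a more than 97.0% of 4997 and Mbp more than 94.9% of 39. Cnp was ordinary by this measure, varying more than 50.2% of 667 genes.

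What the 9 genes shared was this library-to-library variation. Over the 31 libraries the 36 pairs had Pearson's r of log2 CPM from 0.30 to 0.95 with a median of 0.65, and 34 of 36 passed 0.05 after adjustment over the pairs by a two-sided permutation test. Spearman's rho had a median of 0.58 and also passed for 34 pairs. Without the 5 doubtful libraries Pearson's r had a median of 0.58 and 5 pairs lost the call. Pairs with r over 0.5 then numbered 21 of 36, against 29 with all libraries. How many pairs of other genes would pass was not counted. After each group's mean was taken away, the median r was 0.66, about as high as with the group means left in. Within groups the median r was 0.58 in obesogenic females, 0.90 in control females, 0.62 in obesogenic males and 0.56 in control males. The high value in control females includes control female 5, in which all 9 genes stood at 0.39 to 0.60 times the median of 6 other control females.

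The pairs formed 2 tight sets. Mbp and Mobp, the basic proteins of compact myelin, had r of 0.95 and rho of 0.93 (n = 31, permutation p 1e-05 for each, the smallest that 100000 permutations can give, adjusted p 3e-05 for r and 4e-05 for rho). Mog and Cnp had r of 0.93 and rho of 0.92, Mag and Cnp 0.92 and 0.90, and Mog and Mag 0.92 and 0.91, with the same permutation and adjusted p-values. Without the 2 libraries farthest from the median of the first gene, r was 0.93 for Mbp and Mobp, 0.87 for Mog and Cnp, 0.87 for Mag and Cnp and 0.90 for Mog and Mag. With the 5 doubtful libraries out, these were 0.96, 0.83, 0.83 and 0.87.

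Across the sets the relation was looser over the 4 groups. The 6 pairs had r from 0.53 for Mog and Mobp to 0.76 for Mbp and Cnp over 31 libraries, and from 0.34 to 0.68 for the same pairs without the 5 doubtful ones. It was not looser in every group: in obesogenic males Mag had r of 0.97 with both Mbp and Mobp and 0.77 with Mog (n = 8). The loosest pair, Mog and Mobp, had r of 0.53 and rho of 0.43 over 31 libraries (permutation p 0.00157 and 0.0149, adjusted 0.00217 and 0.0179). Without the 2 farthest libraries r was 0.31, and without the 5 doubtful ones 0.34 (adjusted permutation p 0.114 and 0.105), so the relation of that pair rests in part on those libraries. Mal, the proteolipid of protein sorting, was near both sets, with r of 0.80 with Mbp, 0.79 with Cnp and 0.81 with Mag, and 0.72, 0.77 and 0.65 without the 5 libraries.

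Opalin was nearer to the Mog set than to the Mbp set. Its r was 0.73 with Mog and 0.72 with Cnp over all libraries, and 0.62 and 0.58 without the 5. With Mbp it was 0.47, and with Mobp 0.37, which became 0.19 and 0.13 without the 5 (adjusted permutation p 0.391 and 0.539). The difference between these correlations was not tested.

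The regulator Myrf was, without the 5 doubtful libraries, the closest partner of Ugt8a and of no other member. Its highest r was 0.73 with Mag, followed by 0.65 with Mal and 0.60 with Ugt8a, and its lowest was 0.01 with Opalin. With all libraries Opalin and Myrf had r of 0.30 and rho of 0.054 (permutation p 0.103 and 0.772, adjusted p the same), the lowest of the 36 pairs. Without the 2 farthest libraries r was -0.019.

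**Figure D3:**
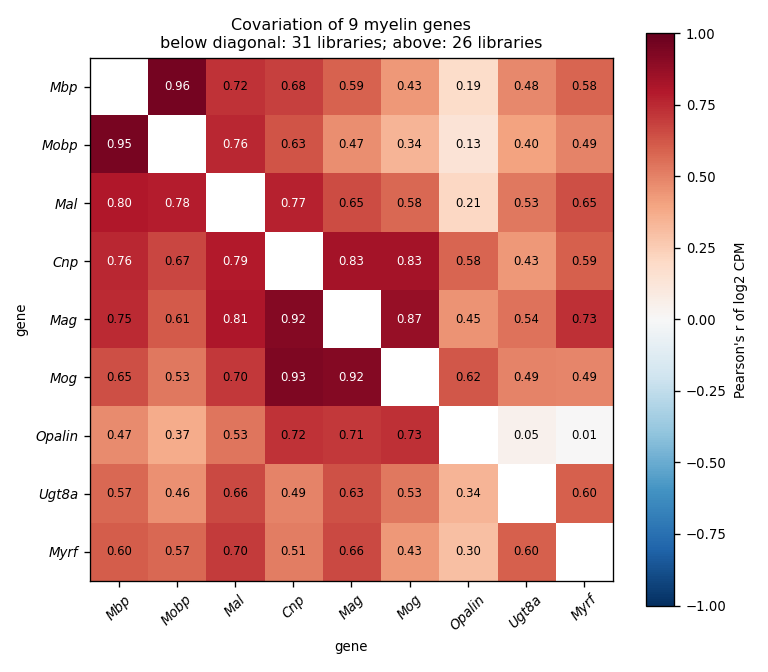
Pearson's r of log2 CPM between the 9 genes, over 31 libraries below the diagonal and over the 26 libraries without the 5 doubtful ones above it. Mbp with Mobp (0.95 and 0.96) and Cnp, Mag and Mog among themselves (0.92 to 0.93 and 0.83 to 0.87) are the darkest cells, and Opalin with Myrf (0.30 and 0.01) is the palest.

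**Figure D4:**
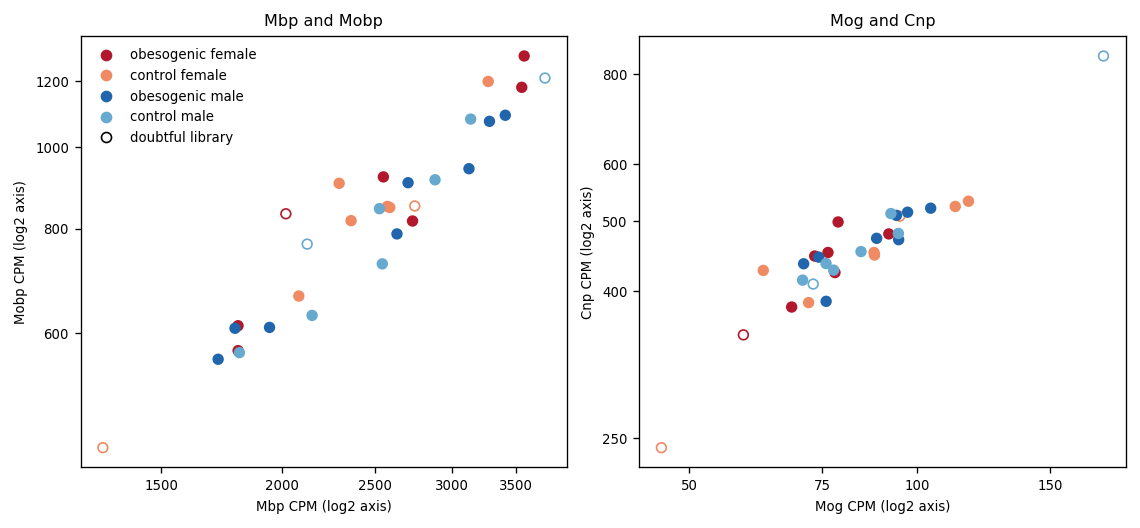
Mobp against Mbp (left) and Cnp against Mog (right), in CPM on log2 axes, 1 point per library coloured by group, with the 5 doubtful libraries open. Libraries of all 4 groups lie along the same line in each panel, with control female 5 at the lower left of both and control male 6 at the upper right of the right one.

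Because Mbp and Mobp moved partly apart from Mog, Mag and Cnp, their difference was followed as well, a measure chosen after these values were seen. It is the mean log2 CPM of Mbp and Mobp minus the mean log2 CPM of Mog, Mag and Cnp. Over the 26 undoubted libraries it ranged from 2.46 in obesogenic male 7 to 3.47 in obesogenic female 1, a 2.01-fold range. Its group values overlapped: 2.46 to 3.47 (median 2.96) in 6 obesogenic females, 2.59 to 3.20 (median 2.88) in 6 control females, 2.46 to 3.17 (median 2.80) in 8 obesogenic males and 2.51 to 3.36 (median 2.80) in 6 control males.

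Genes of some other cell types moved with this difference, and so did some oligodendrocyte genes. Of 14 astrocyte genes, 13 had r over 0.5 with it over the 26 libraries and their median was 0.73, where 6.12% of 18729 genes tested had r over 0.5 and the median was 0.0089. The highest were S100b at 0.87, a calcium-binding protein gene that oligodendrocytes also express, and Aldoc at 0.85, a glycolytic enzyme of astrocytes, and the lowest was the water channel gene Aqp4 at 0.42. Of 12 microglia genes, 7 had r over 0.5, with a median of 0.59. Of 12 oligodendrocyte transcription factor genes 6 did, with a median of 0.44, and of 30 other mature oligodendrocyte genes 4 did, with a median of 0.22, among them Bcas1 at 0.88, above every astrocyte gene. None of 10 endothelial, 8 ependymal and 10 meningeal fibroblast genes did (list medians 0.14, 0.16 and 0.29). These genes were named for their place at the ends of their lists after the values were seen.

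Neuron genes went the other way. None of 14 had r over 0.5 and 5 had r under -0.5, with a median of -0.42, where 8.46% of all genes tested had r under -0.5. The lowest was Eno2, the neuronal enolase, at -0.82, followed by Syt1 and Tubb3 at -0.75 and -0.74, and the highest was the neurofilament gene Nefl at -0.061. All these values share the same 26 libraries and their scaling, and CPM are shares of a library, so that more of one kind of transcript leaves less for the others.

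The summed level of the 14 astrocyte genes was 5689 to 8716 CPM in obesogenic females, 4765 to 8412 CPM in control females, 5288 to 8564 CPM in obesogenic males and 6214 to 9390 CPM in control males. That of the 14 neuron genes was 4626 to 6062 CPM in obesogenic females, 4808 to 9739 CPM in control females, 5136 to 6670 CPM in obesogenic males and 5082 to 5784 CPM in control males. The 9739 CPM were those of control female 5. None of either list was at 0 in all libraries, and their part in the covariation of the myelin genes was not tested.

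**Figure D5:**
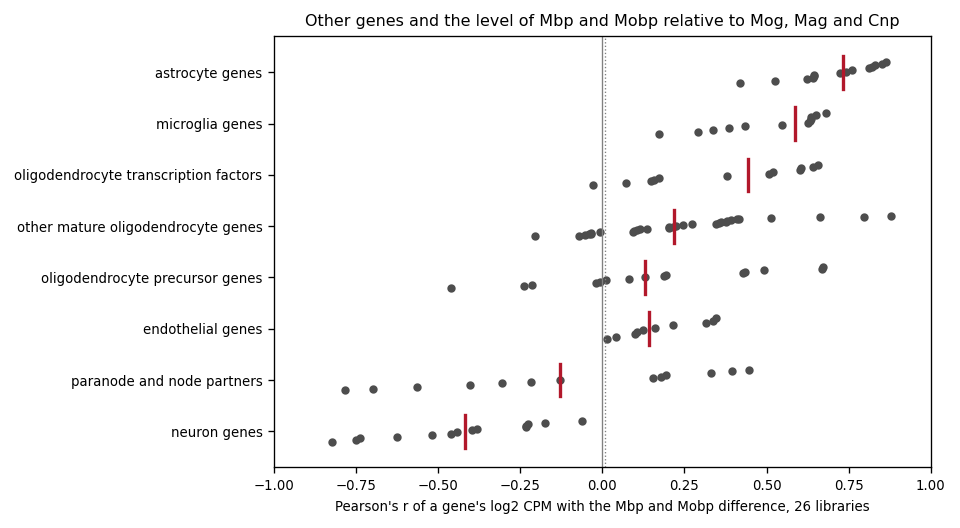
Pearson's r, over the 26 undoubted libraries, between each gene's log2 CPM and the mean log2 level of Mbp and Mobp minus that of Mog, Mag and Cnp, by gene list. Each point is 1 gene, the red bar the list's median and the dotted line the median of all tested genes; astrocyte genes lie at 0.42 to 0.87 and neuron genes at -0.82 to -0.061.

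Likeness of other genes to the 9 was measured as the median of a gene's 9 values of r with the members over the 26 undoubted libraries. Of 18725 other genes, 312 (1.67%) had a median r over 0.5. Among the highest were Tmem88b at 0.73, Apod at 0.69, Map4 at 0.69 and Llgl1 at 0.69. Apod encodes a lipid-binding lipocalin, Map4 a microtubule-associated protein and Llgl1 a cell polarity protein. With all 31 libraries the value was 0.77 for Tmem88b, but 0.12 for Apod, 0.37 for Map4 and 0.38 for Llgl1.

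Lists of related genes ranked by the same measure. Of 30 other mature oligodendrocyte genes, 17 had a median r over 0.5 and their median was 0.55. Among 12 oligodendrocyte transcription factor genes 1 was over 0.5 (list median 0.24), among 15 precursor genes 2 (0.16), among 15 myelin lipid enzyme genes 3 (0.25) and among 13 genes of the node and paranode, where axon meets myelin edge, 0 (0.14). Astrocyte genes had a list median of 0.36 with 1 of 14 over 0.5, and neuron genes -0.067 with 0 of 14.

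Other genes of the pathway did not pass the test under maternal diet either. In both diet contrasts 0 genes of these lists passed the adjusted threshold by edgeR. At an unadjusted p under 0.05 in females there was 1 of 30 mature oligodendrocyte genes, 0 of 12 transcription factors, 2 of 15 precursor genes, 0 of 15 lipid enzymes and 3 of 13 node and paranode genes, beside the 8.12% of all genes. In males there was 1 of 12 transcription factors and 1 of 15 lipid enzymes, with 0 in the other 3 lists, beside the 3.45%.

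In females these were Mcam, an adhesion molecule gene, at a log2 fold change of 0.28 ± 0.12, the precursor genes C1ql1 and Lhfpl3 at -0.30 ± 0.12 and -0.26 ± 0.11, and 3 node and paranode genes. The last were Ank3, the scaffold ankyrin G, at 0.29 ± 0.12, Cntnap1, the paranodal contactin partner, at 0.38 ± 0.16, and Nfasc, the adhesion molecule of both sites, at 0.23 ± 0.10 (SE). Their edgeR adjusted p-values lay between 0.557 and 0.599. Leaving out the 5 doubtful libraries put Lhfpl3 at -0.11 ± 0.081, Nfasc at 0.15 ± 0.081 and Cntnap1 at 0.26 ± 0.12.

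In males the transcription factor was Zfp488, a zinc-finger factor of oligodendrocyte differentiation, at 0.38 ± 0.17 (SE; edgeR adjusted p 0.940). After the same step it was at 0.35 ± 0.16. In females Zfp488 stood at -0.15 ± 0.17 with all libraries and at -0.36 ± 0.17 without the 5.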

How the data were processed

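Total RNA of the hypothalamus was isolated with an RNAqueous kit and made into TruSeq libraries, per the labels' protocols. TopHat2 2.0.13 was used with build mm10, per the submitters' processing notes. The deposited values are raw counts of read pairs. Per the file headers, featureCounts 1.6.2 assigned pairs to the genes of Ensembl GRCm38 release 94 on the reverse strand, and required that both ends map and that mapping quality reach 10. The file's gene length, per the file headers the bases of all exons of a gene together, served only to compute TPM. Pairs that map to several places or overlap several genes on 1 strand are left out by that command.

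Symbols were matched for 54409 of 54532 gene IDs, 31 columns were matched to the library titles and 0 were left unused. Library totals ran from 23118626 to 38547288 pairs, so that 1 pair is 0.0259 to 0.0433 CPM. Even the most similar pair within a group had a chi-square of 10.9 per degree of freedom across genes, far above sampling noise, and no library was treated as a repeat. The edgeR 4.0.16 test (R 4.3.3) used filterByExpr, TMM scaling and a robust quasi-likelihood fit with 1 mean per group over all libraries, and 95% intervals come from it. Log2 CPM had a prior count of 2. Correlations used 100000 permutations (numpy 2.4.6), with Benjamini-Hochberg adjustment over 36 pairs. The fit was tested on simulated data. Alternatives were DESeq2 1.42.0, voom with sample weights in limma 3.58.1, other scalings and filters, and libraries left out. The members and lists were chosen with earlier results of these data known. Of the other lists, at most the 3 genes of smallest p in a diet contrast are named, with exceptions said in the text, and some genes of these lists are not reported here by name.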

Additional observations from a re-analysis of the deposited data

Results flagged for a closer look

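There were 4 values that stood apart from the rest of their group by the gap to the nearest library over the range of the group, of 36 groups of 7 or 8 libraries tested (Dixon's test). Chance flags about 1 in 20 groups.

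In control male 6, Mog was at 176 CPM, Mag at 287 CPM and Cnp at 848 CPM, the highest of the 8 control males in each case, against 70.6 to 94.5, 169 to 216 and 414 to 513 CPM in the 6 undoubted control males. The 3 values come from the same library and the same correlated genes, so they are not separate events. In that library Myrf and Ugt8a stood at 0.95 and 0.94 times the median of the 6, the 30 other mature oligodendrocyte genes summed to 8307 CPM against 4295 to 5299 CPM, and 18 hypothalamic identity genes summed to 3784 CPM against 1218 to 2135 CPM. Reads fell on 18734 genes in it.

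In obesogenic male 5, Ugt8a was at 80.2 CPM, the highest of the 8 obesogenic males, whose median was 59.0 CPM. The same library was the highest of its group for Mbp, Mobp, Mag, Mal and Myrf as well.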

How the results depend on the processing

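In each of the 4 comparisons 0 of the 9 genes passed the adjusted threshold with all settings tried and with each of the 31 libraries left out in turn. Left out one at a time, the libraries moved the median log2 fold change of the 9 between -0.11 and 0.026 for diet in females, between -0.011 and 0.097 for diet in males, between -0.14 and 0.040 for the interaction and between -0.13 and -0.050 for sex. The members called stayed at 0 in each. No paired analysis was possible because the labels give no replicate numbers that groups share, and the numbers used here follow accession order.

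Counts of called genes over the whole table depended on the tool and, for sex, on the libraries. DESeq2 called 6 genes for diet in females, 1 for diet in males, 6 for the interaction and 15 for sex. For sex, where edgeR called 5, voom with sample weights called 1, no filter 1, the fit without the 5 doubtful libraries 19 and the fit without the 2 libraries whose titles hold 2 numbers, which may be pools or merged runs, 1.

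Of 386 single values compared with another setting, 16 changed sign, none of them past the threshold. For diet in females voom gave Myrf -0.0067 and Ugt8a -0.053, and Ugt8a was -0.086 without the 2 libraries of 2 numbers. For diet in males voom gave Mbp 0.082, Mog 0.13, Mobp 0.055 and Cnp 0.078. Without the 5 doubtful libraries they were Mbp 0.038, Mog 0.082, Mobp 0.051 and Cnp 0.049, and without the 2 libraries of 2 numbers Mbp was 0.040 and Mobp 0.018. Mobp was -0.023 for the interaction without the 5 and -0.029 for sex without the 2. Opalin with Myrf had r of -0.019 without the 2 farthest libraries. The cause of these changes was not tested. A further 12 values of r lost the call under another setting, 5 of them without the 5 doubtful libraries and 6 without the 2 farthest.

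At this depth the spread between libraries, not counting error, sets the width of the intervals.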

Other observations

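The transcription factors that make and keep oligodendrocytes were read in all 31 libraries, and the following are named for their level, after the values were seen. Olig1 was the highest of the 12 measured at 205 ± 24.9 TPM, above Mog and Mag on average. Nkx6-2 averaged 49.1 ± 13.7 TPM, Sox10 45.2 ± 7.41 TPM, Sox8 43.4 ± 4.95 TPM and Olig2 42.6 ± 5.69 TPM, against 21.3 ± 4.3 TPM for Myrf (SD, n = 31 each). The 15 genes of oligodendrocyte precursors, the cells that mature into myelinating ones, summed to 779 to 1003 CPM (median 942) in obesogenic females and 704 to 982 CPM (median 894) in control females. They summed to 839 to 1140 CPM (median 909) in obesogenic males and 602 to 1174 CPM (median 930) in control males, so the groups overlapped in both sexes. The lowest sum was that of control male 6, the library in which Mog and Cnp were highest.

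In control female 5, which had almost none of the hypothalamic identity genes, the 9 myelin genes stood at 0.39 times (Opalin) to 0.60 times (Ugt8a) the median of the 6 undoubted control females. The 30 other mature oligodendrocyte genes summed to 4050 CPM in the same library, within the 4003 to 6128 CPM of the undoubted control females. Its 14 astrocyte genes summed to 4765 CPM against 6334 to 8412 CPM, and its 14 neuron genes to 9739 CPM against 4808 to 6033 CPM.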
